A study of Mus musculus with 9 samples.

Results

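The genes described here are 10 genes that mark or maintain haematopoietic stem and progenitor cells, Kit, Cd34, Ly6a, Slamf1, Cd48, Mecom, Hlf, Hoxa9, Meis1 and Mycn. They were chosen by name, with earlier results of these data known. All 10 were found by the gene names of the array files, among 37316 named genes. All 10 also passed the filter on low signal and are among the 29410 genes that were tested. The array carries 24 probes for them, of which 21 passed the same filter, and 7 of the genes have more than 1 probe.

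Expression was measured in mature megakaryocytes (mMKs), the large marrow cells that shed platelets, from male C57BL/6 mice. The groups were sham-irradiated controls (Ctrl) and mice killed 1 or 3 days post irradiation (dpi) after 5 Gy of total body γ-rays from a 60Co source, with 3 arrays per group from different donors and 9 arrays in all. The mMKs were enriched from femur and tibia marrow by positive selection for CD41 and then CD42d, and the labels give the RNA as from sorted mMKs. The ages of the mice are not in the labels. RNA was labelled with Cy3 and hybridised to Agilent arrays of 60-base probes placed on the mouse genome build mm9. The paper's text names the assay otherwise, as an Affymetrix chip in the methods and RNA-seq in the results, and all values here come from the Agilent files. Each level is the log2 of the signal with the array's own 75th percentile subtracted, so 0 is the intensity that 75% of probes on an array do not exceed. A gene was called higher or lower where the Benjamini-Hochberg adjusted p of limma over all genes was under 0.05 and the change was at least 2-fold.

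Stem and progenitor cells of the marrow are recognised by the receptors on their surface and kept in an immature state by a small set of transcription factors. Kit is the receptor tyrosine kinase for stem cell factor, Cd34 is a sialomucin of progenitors and endothelial cells, Ly6a encodes Sca-1, and the SLAM family receptors CD150 (Slamf1) and CD48 separate stem cells from the progenitors they give rise to. Megakaryocyte progenitors carry Kit and CD150, and Kit is lost as megakaryocytes mature. Among the transcription factors, Hoxa9 and Meis1 act as partners on DNA, Mecom and Hlf are known for stem cell self-renewal, and Mycn is a member of the MYC family that drives growth of blood progenitors.

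Signal differed between the arrays. Of the 59305 spots that are not controls, 69.1%, 79.5% and 80.8% were well above background on the 3 Ctrl arrays, 72.3%, 74.8% and 75.6% at 1 dpi, and 81.8%, 81.6% and 81.8% at 3 dpi. The 75th percentile was 9.52, 10.12 and 10.15 in Ctrl, 8.85, 8.96 and 8.94 at 1 dpi, and 9.85, 10.04 and 10.02 at 3 dpi. Ctrl replicate 1 was the only array on its slide. The megakaryocyte label was checked against 18 markers of the lineage, all measured on all 9 arrays, whose mean level was 1.81 in Ctrl, 1.73 at 1 dpi and 2.0 at 3 dpi, with Pf4 (platelet factor 4) the brightest. Limma called 0 of the 18 in any comparison, while with arrays scaled to their median 1 was lower at 1 dpi and 2 higher at 3 dpi against 1 dpi. Against Ctrl, an unadjusted p under 0.05 was reached at 1 dpi by 4 markers that were higher and 6 that were lower, and at 3 dpi by 7 and 3. Markers of other marrow cells were also present and are given beside the genes that such cells share. Some lists stood above the megakaryocyte list in each group. Means in Ctrl, 1 dpi and 3 dpi were 6.36, 6.87 and 6.41 for neutrophil markers and 2.25, 3.24 and 3.03 for mast cell and basophil markers. Those of macrophage and monocyte markers were 2.02, 2.36 and 3.62. The other cell type lists were lower. Mpo, at 8.22 in Ctrl, was brighter than Pf4, at 6.53. The share of each cell type was not measured, so no change is assigned to mMKs alone.

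At 1 dpi against Ctrl, 4 of the 10 genes fell and 0 rose, while over all genes tested 3.08% were called lower and 11.7% higher, 14.8% in all. The 4 were Kit, Hlf, Meis1 and Mycn. At an unadjusted p under 0.05 in limma, 8 were lower and 1, Ly6a, was higher. At 3 dpi against Ctrl, 5 of the 10 fell and 0 rose, against 1.79% called lower and 7.04% called higher over all genes, 8.83% in all. These were Kit, Cd34, Hlf, Meis1 and Mycn, and at an unadjusted p under 0.05 in limma 6 genes were lower and 3 higher. Between the times, at 3 dpi against 1 dpi, Slamf1 rose and Cd34 and Meis1 fell, 3 of 10 against 8.64% of all genes (4.16% higher, 4.48% lower). Since the comparisons with Ctrl share the 3 control arrays, and those with 1 dpi share the 1 dpi arrays, the 3 counts are not independent. Because the 10 genes were chosen with earlier results of these data known, their counts beside the shares of all genes are a description only.

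The median log2 fold change of the 10 genes was -0.56 at 1 dpi and -1.02 at 3 dpi against Ctrl, and -0.48 between the times. The same over all genes tested was 0.23, 0.12 and -0.08. Relative to all genes, the medians of the 10 were therefore -0.78, -1.14 and -0.40. Groups did not overlap in 9, 9 and 8 of the 10 genes, against 67.2%, 47.2% and 65.2% of all genes. An adjusted p under 0.05 at any fold was reached by 8 of the 10 in each comparison, against 55.3%, 31.9% and 44.3% of all genes. How called genes split into higher and lower depended on scaling. At 1 dpi 79.2% of them were higher, 45.0% with arrays scaled to their median, where the all-gene median moved to -0.10, and 56.3% after quantile normalization. Between the times these were 48.2%, 68.2% and 62.9%. In the same order, genes called lower numbered 906, 2303 and 1510 at 1 dpi, and 526, 788 and 693 at 3 dpi, of 29410. The same 4 and 5 genes were called lower against Ctrl under each of these scalings. In these bulk samples, fewer cells of a type and less RNA per cell cannot be told apart.

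**Figure D1:**
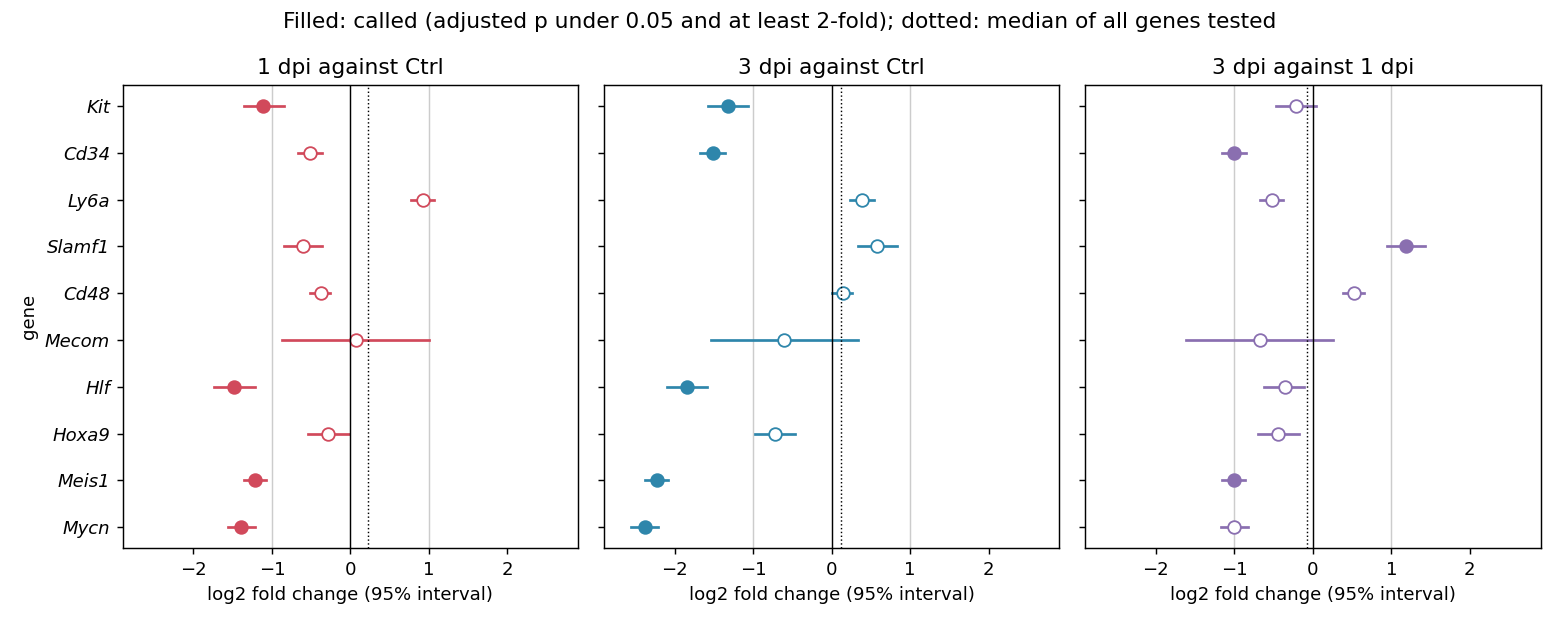
Log2 fold change of each of the 10 genes in the 3 comparisons, with its 95% interval (limma, n = 3 per group). Filled points were called and the dotted line is the median of all genes tested. Kit, Hlf, Meis1 and Mycn lie below -1 at both times, Cd34 passes -1 at 3 dpi, and Slamf1 is the only gene called higher, at 3 dpi against 1 dpi.

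The promoters of the 4 genes that fell at both times, Kit, Hlf, Meis1 and Mycn, are shown because these genes moved together. The RefSeq promoter table for GRCm38.p6 holds 9 of the 10 genes, with 2 starts each for Kit and Mecom, and Ly6a is not among them. Each run gives the 250 bases before the start, 5′ to 3′ on the strand of the gene, with every match to a searched motif in capitals. The windows are chr5:75574737-75574986 on the + strand for Kit (the start listed first), chr11:90390918-90391167 on the - strand for Hlf, chr11:19018970-19019219 on the - strand for Meis1 and chr12:12941837-12942086 on the - strand for Mycn.
Kit: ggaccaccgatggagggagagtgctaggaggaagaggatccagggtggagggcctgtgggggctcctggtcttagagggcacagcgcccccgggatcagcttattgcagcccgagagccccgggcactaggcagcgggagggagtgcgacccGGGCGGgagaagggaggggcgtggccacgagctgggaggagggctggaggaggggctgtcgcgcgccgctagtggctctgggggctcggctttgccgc
Hlf: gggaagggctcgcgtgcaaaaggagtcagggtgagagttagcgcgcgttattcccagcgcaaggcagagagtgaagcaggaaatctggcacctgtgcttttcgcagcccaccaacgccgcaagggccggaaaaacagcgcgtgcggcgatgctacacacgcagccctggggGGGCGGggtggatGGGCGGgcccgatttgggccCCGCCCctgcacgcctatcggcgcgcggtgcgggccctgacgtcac
Meis1: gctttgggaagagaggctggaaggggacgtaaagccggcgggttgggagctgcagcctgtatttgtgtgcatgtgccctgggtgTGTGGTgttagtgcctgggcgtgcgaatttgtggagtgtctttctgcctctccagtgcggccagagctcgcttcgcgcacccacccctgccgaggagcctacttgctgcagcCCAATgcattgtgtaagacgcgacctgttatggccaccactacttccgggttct
Mycn: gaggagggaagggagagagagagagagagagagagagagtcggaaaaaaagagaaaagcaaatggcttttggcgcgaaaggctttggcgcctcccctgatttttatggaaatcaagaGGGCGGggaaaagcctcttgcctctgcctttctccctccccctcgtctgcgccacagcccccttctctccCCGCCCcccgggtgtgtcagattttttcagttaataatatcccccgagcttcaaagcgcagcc
These windows are 70.8% (Kit), 67.2% (Hlf), 59.6% (Meis1) and 54.8% (Mycn) G or C, and the median of all 32851 promoters is 52.4%.

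Of 9 motifs searched on both strands, the GC box GGGCGG was found before the start of 5 of the 9 genes, Kit, Mecom, Hlf, Hoxa9 and Mycn, and in 32.7% of all promoters. Hlf holds 3 copies, Mycn 2 and Kit 1, and the second start of Kit also has 1. Meis1 has none, but holds the RUNX motif TGTGGT (14.0% of all promoters), as does Cd48, and the CCAAT box CCAAT (33.8%), as does 1 start of Mecom. The ETS motif CAGGAAG (10.8%) was found in Cd34 and Slamf1, and the MEIS motif TGACAG (15.9%) in Mecom. The letters of the GATA motif AGATAA (9.99%), the E-box CACGTG (6.02%), the PAR bZIP motif TTACGTAA (0.113%) and the TATA box TATAAA (12.4%) are not in these windows. None of the motifs contains another, and CACGTG and TTACGTAA read the same on both strands. The GC, CCAAT and TATA boxes were added to the search after the sequences had been seen, and a match is a description of letters only.

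Kit, the stem cell factor receptor, stood at 3.90, 3.59 and 3.61 on the Ctrl arrays, at 2.41, 2.67 and 2.70 at 1 dpi and at 2.35, 2.42 and 2.36 at 3 dpi. All 6 arrays of irradiated mice lay below all 3 Ctrl arrays, while the arrays of the 2 times overlapped. Kit fell 2.15-fold at 1 dpi (log2 fold change -1.11 ± 0.11 SE, adjusted p = 1.5e-04, limma, n = 3 per group) and 2.50-fold at 3 dpi (-1.32, adjusted p = 7.6e-05), and the times differed by -0.21 (adjusted p = 0.158). This is the brightest of 3 Kit probes and lies at chr5:76052394-76052453 on the + strand. The other 2 match a cDNA clone and lie 4073 and 4133 bases before it. Both fell as well, by -1.41 and -1.56 at 1 dpi and by -2.25 and -2.31 at 3 dpi. At these 2 probes the arrays of 3 dpi lay below those of 1 dpi, with differences of -0.84 and -0.75 (adjusted p = 7.8e-05 and 3.8e-04), short of 2-fold. The brightest probe therefore showed the smallest change of the 3 at each time.

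Cd34 is read by 2 probes, the brighter at chr1:196787392-196787451 on the + strand. Its levels were 5.32, 5.33 and 5.29 in Ctrl, 4.78, 4.79 and 4.83 at 1 dpi, and 3.91, 3.78 and 3.70 at 3 dpi. The 3 groups did not overlap and their order was Ctrl, 1 dpi and 3 dpi, from high to low. At 1 dpi the level was 1.43-fold lower (-0.51 ± 0.07 SE, adjusted p = 5.3e-04), which is short of the 2-fold limit. At 3 dpi Cd34 had fallen 2.86-fold against Ctrl (-1.51, adjusted p = 2.4e-06) and 2.0-fold against 1 dpi (-1.00, adjusted p = 4.4e-05). The last call sits at the limit and was lost without 1 dpi replicate 3 (-0.99), 3 dpi replicate 2 (-0.99) or 3 dpi replicate 3 (-0.95). It was also lost with arrays scaled to their median (-0.83), and after quantile normalization with or without normexp correction (-0.97 in each). The deposited table, which carries the other probe, also gave -0.97. The second Cd34 probe gave -0.59, -1.68 and -1.09 in the same comparisons.

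Ly6a, whose product Sca-1 is held in the membrane by a lipid anchor, was the only gene of the 10 that was highest at 1 dpi on every array. It stood at 2.78, 2.92 and 2.89 in Ctrl, at 3.86, 3.73 and 3.76 at 1 dpi and at 3.25, 3.26 and 3.27 at 3 dpi. The groups did not overlap, with 3 dpi between Ctrl and 1 dpi. The 1 dpi level was 1.89-fold above Ctrl (0.92 ± 0.06 SE, adjusted p = 2.7e-05) and the 3 dpi level 1.31-fold above it (0.39, adjusted p = 0.00251). Between the times the difference was -0.52 (adjusted p = 5.6e-04). With arrays scaled to their median the 3 differences were 0.59, 0.24 and -0.35, and after quantile normalization 0.91, 0.35 and -0.56. None of the 3 differences reached 2-fold, so Ly6a was not called in any comparison. It has 1 probe, at chr15:74825553-74825612 on the - strand.

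Ly6a is also known as a gene that interferon induces in blood cells. A list of 20 interferon response genes had a mean level of 1.55, 1.49 and 1.51 on the Ctrl arrays, 3.54 on each of the 3 arrays at 1 dpi, and 2.48, 2.42 and 2.39 at 3 dpi, with Ly6e, a relative of Ly6a, the brightest. All 20 were measured. Of these, 18 rose at 1 dpi and 8 at 3 dpi, 14 and 5 with arrays scaled to their median, and 11 fell from 1 to 3 dpi. Their part in the level of Ly6a was not tested. Other Ly6 family genes did not move in 1 direction. Of the 18 besides Ly6a, 6 were called at 1 dpi, 5 of them higher, and 4 at 3 dpi, 3 of them higher. Gpihbp1, which carries lipoprotein lipase in capillaries, rose 3.48-fold and 3.95-fold. Ly6g6c rose 2.05-fold and 3.56-fold, and Ly6i rose 2.54-fold at 1 dpi and was not called at 3 dpi (0.43, adjusted p = 0.137). Ly6d, a marker of early lymphoid cells, fell 4.81-fold and 2.42-fold. With arrays scaled to their median 3 and then 2 of the family were called higher, and after quantile normalization 4 and then 2. The family's median with Ly6a was 0.59 and 0.28, with arrays scaled to their median it was 0.27 and 0.13, and after quantile normalization 0.08 and -0.00.

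The SLAM receptors Slamf1 and Cd48 are neighbours on chromosome 1, with their probes 82.9 kb apart, and both were lowest at 1 dpi. Slamf1 stood at -1.14, -1.33 and -1.43 in Ctrl, at -1.85, -1.83 and -2.02 at 1 dpi and at -0.86, -0.60 and -0.68 at 3 dpi. No group overlapped another, and the order from high to low was 3 dpi, Ctrl and 1 dpi. Against Ctrl the change was -0.60 ± 0.10 SE at 1 dpi (adjusted p = 0.00212) and 0.58 at 3 dpi (adjusted p = 0.00406), both under 2-fold and opposite in sign. From 1 to 3 dpi Slamf1 rose 2.28-fold (1.19, adjusted p = 1.4e-04).

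The 2 Slamf1 probes did not give the same pattern. Probe 1 lies at chr1:173730343-173730402 on the + strand. Probe 2 was dimmer, though well above background on all 9 arrays, and stood at -5.23, -4.86 and -4.80 in Ctrl, at -3.96, -4.48 and -4.02 at 1 dpi and at -4.26, -4.39 and -4.15 at 3 dpi. There the Ctrl arrays were the lowest and the 2 later groups overlapped. Its change was 0.81 at 1 dpi (adjusted p = 0.00459), 0.70 at 3 dpi (adjusted p = 0.0146) and -0.11 between the times (adjusted p = 0.609). With the mean of both probes the change of Slamf1 at 1 dpi was 0.10, and the call between the times was lost (0.54). The probes differ in where they bind, since the array files place the 60 bases of probe 2 over 4319 bases of chr1:173718133-173722451 on the + strand of mm9, in pieces rather than as 1 stretch. Its sequence, and that of a Hoxa9 probe of the same kind placed over 1105 bases of chr6:52174477-52175581 on the - strand, are shown because the readings of these genes depend on the probe, with no base in capitals. The array files do not say which exons they match. Why the 2 Slamf1 probes gave different patterns was not tested.
Slamf1 probe 2: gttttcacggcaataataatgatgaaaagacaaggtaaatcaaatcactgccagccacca
Hoxa9 probe 2: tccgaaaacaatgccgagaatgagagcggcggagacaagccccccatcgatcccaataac

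Cd48, the ligand of the receptor CD244 and present on most blood cells but not on the most immature stem cells, stood at 3.77, 3.81 and 3.76 in Ctrl, 3.44, 3.34 and 3.40 at 1 dpi and 3.93, 3.94 and 3.88 at 3 dpi. The 1 dpi arrays were the lowest 3, and the 3 dpi arrays lay just above the Ctrl arrays. The change was -0.38 ± 0.06 SE at 1 dpi (adjusted p = 8.6e-04), 0.14 at 3 dpi (adjusted p = 0.105) and 0.52 between the times (adjusted p = 3.1e-04), and none reached 2-fold. The difference at 3 dpi changed sign with arrays scaled to their median (-0.01), and probe 2 gave -0.03 there. At 1 dpi that probe gave -0.70. The brighter probe lies at chr1:173635201-173635260 on the + strand.

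Among the 9 other genes of the SLAM family list, limma called 1 higher and 1 lower at 1 dpi. At 3 dpi 2 rose and 0 fell, and of the 11 with Slamf1 and Cd48 1 was lower at an unadjusted p under 0.05. Slamf6, a receptor of lymphocytes, fell 4.54-fold at 1 dpi, and at 3 dpi its change was -0.74 (adjusted p = 0.00191). Slamf8, a receptor of myeloid cells, rose 2.44-fold and 2.07-fold. With arrays scaled to their median, 0 of the 11 were called higher at 1 dpi and 1 at 3 dpi, and after quantile normalization 1 at each time. Sh2d1a, the adaptor that couples SLAM receptors to kinases in T and NK cells, rose 5.23-fold at 3 dpi, from -5.19 to -2.80. At 1 dpi it was at -5.03, well above background on 2 of 3 arrays.

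**Figure D2:**
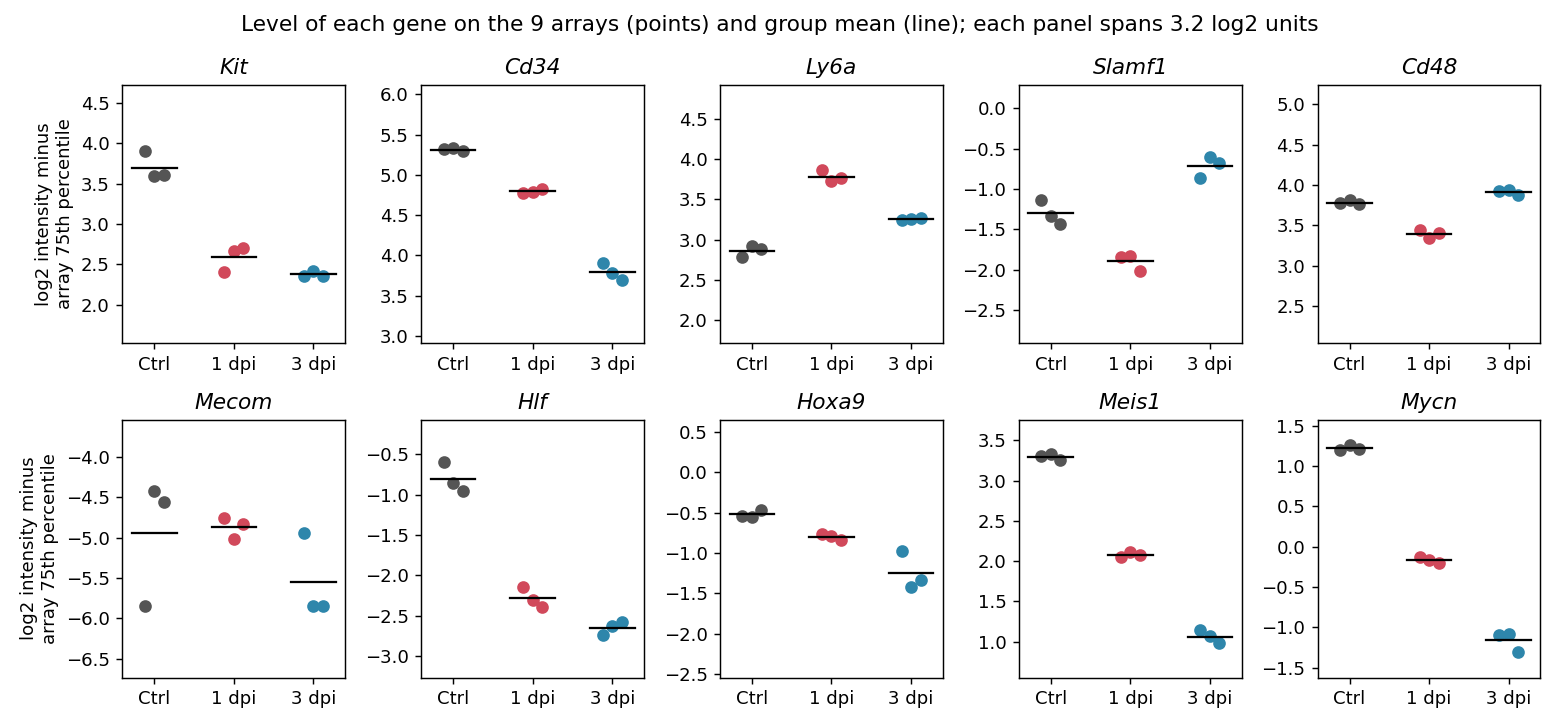
Level of each of the 10 genes on the 9 arrays (points, log2 intensity minus the 75th percentile of the array) and the mean of each group (line), at the brightest probe. Each panel spans 3.2 log2 units. Kit, Cd34, Hlf, Hoxa9, Meis1 and Mycn are highest in Ctrl, Ly6a is highest at 1 dpi, and Slamf1 and Cd48 are lowest at 1 dpi.

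At their brightest probes, Meis1 and Mycn had the largest changes of the 5 transcription factors at 3 dpi. Hlf had the largest at 1 dpi, though without Ctrl replicate 1 Mycn did (-1.40, beside -1.38 for Hlf). Meis1, a homeobox protein also needed for megakaryocyte formation, stood at 3.31, 3.33 and 3.25 in Ctrl, at 2.05, 2.11 and 2.08 at 1 dpi and at 1.14, 1.07 and 0.98 at 3 dpi. The groups were far apart compared with the spread inside each, and the order was Ctrl, 1 dpi and 3 dpi. Meis1 fell 2.33-fold at 1 dpi (-1.22 ± 0.06 SE, adjusted p = 5.6e-06) and 4.70-fold at 3 dpi (-2.23, adjusted p = 3.4e-07). Between the times it fell 2.02-fold (-1.01, adjusted p = 3.0e-05). That call was lost without 1 dpi replicate 2 (-1.00) or 3 dpi replicate 3 (-0.97) and with arrays scaled to their median (-0.84). The 4 Meis1 probes, spread over 131 kb of chromosome 11 between chr11:18780695-18780754 and chr11:18911247-18911306, moved alike. Their changes ran from -1.39 to -0.61 at 1 dpi, where 3 of 4 were called, and from -2.60 to -2.11 at 3 dpi, where all 4 were called. Between the times all 4 were called as well, from -1.50 to -1.01.

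Mycn, read by 1 probe at chr12:12942981-12943040 on the - strand, stood at 1.20, 1.26 and 1.21 in Ctrl, at -0.13, -0.16 and -0.20 at 1 dpi and at -1.09, -1.08 and -1.31 at 3 dpi. No array of a group reached into the next group. Mycn fell 2.62-fold at 1 dpi (-1.39 ± 0.08 SE, adjusted p = 7.7e-06) and 5.22-fold at 3 dpi (-2.38, adjusted p = 5.3e-07), the largest fold among the brightest probes of the 10 genes. Between the times the difference was just short of 2-fold (-1.00, adjusted p = 7.3e-05). It was called without 1 dpi replicate 3 (-1.02), 3 dpi replicate 1 (-1.03) or 3 dpi replicate 2 (-1.04).

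In the MYC and MAX network, a list of 13 genes with Mycn, Mycn and Myc were called lower at 1 dpi and Mycn at 3 dpi, and 0 rose at either time. Under array median scaling 3 and then 2 were called lower, and after quantile normalization 3 and then 1. Among the 13, 1 was higher at an unadjusted p under 0.05 at 1 dpi and 0 at 3 dpi. Myc, the best known gene of the family, went from 3.47 to 2.03 at 1 dpi, a fall of 2.72-fold, and stood at 2.61 at 3 dpi (-0.87, adjusted p = 2.0e-04). Mycn was lowest at 3 dpi and Myc at 1 dpi. The 13 genes had a median change of -0.22 and then -0.10.

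Hlf, a transcription factor of the PAR bZIP family and known from stem cells, stood at -0.60, -0.86 and -0.95 in Ctrl, at -2.15, -2.31 and -2.39 at 1 dpi and at -2.74, -2.63 and -2.58 at 3 dpi. Ctrl was well apart from both later groups, and the later groups were close to each other without overlap. Hlf fell 2.79-fold at 1 dpi (-1.48 ± 0.11 SE, adjusted p = 3.5e-05) and 3.59-fold at 3 dpi (-1.84, adjusted p = 1.2e-05), and the times differed by -0.36 (adjusted p = 0.0298). Its 1 probe lies at chr11:90201236-90201295 on the - strand. The other 4 tested genes of the list of PAR bZIP and Mecom relatives, which cover the genes closest to Hlf and Mecom, were not called in any comparison. At an unadjusted p under 0.05, 2 of the 6 with Hlf and Mecom were lower at each time, and 1 and then 2 higher. The median of the 6 was -0.13 at 1 dpi and -0.31 at 3 dpi.

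Hoxa9, the homeobox partner of Meis1, stood at -0.54, -0.55 and -0.47 in Ctrl, at -0.76, -0.79 and -0.84 at 1 dpi and at -0.98, -1.42 and -1.33 at 3 dpi. The groups were ordered as for Meis1, with small steps, and 3 dpi replicate 1 was near the 1 dpi arrays. The change was -0.28 ± 0.11 SE at 1 dpi (adjusted p = 0.0676) and -0.72 at 3 dpi (adjusted p = 0.00196), under 2-fold at both times. The array has 3 Hoxa9 probes within 4.15 kb, of which the brightest lies at chr6:52174227-52174286 on the - strand. Probe 2, whose sequence is printed above, gave 0.10 at 1 dpi (adjusted p = 0.410) and -0.61 at 3 dpi (adjusted p = 0.00290).

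Probe 3 of Hoxa9, at chr6:52178314-52178373, was well above background on all 3 Ctrl arrays and on 0 of 3 arrays at each later time. Its Ctrl levels were -4.73, -4.53 and -4.85, and those of the later arrays ran from -7.90 to -7.14. Set against the lowest signal well above background, it was at least 1.49-fold lower at 1 dpi and at least 3.07-fold lower at 3 dpi. The other 2 probes were called at neither time. The table deposited by the authors carries the values of probe 3 for Hoxa9, and the gene was called lower there at both times. With the mean of its probes it was called lower at 3 dpi. Both rest on probe 3, so neither gives a size.

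Mecom, a zinc finger protein known for its part in stem cell self-renewal, was at the edge of detection. Its brightest probe (chr3:30135491-30135550, - strand) stood at -5.85, -4.42 and -4.55 in Ctrl, -4.76, -5.02 and -4.83 at 1 dpi and -4.94, -5.85 and -5.85 at 3 dpi, and was well above background on 2 of 3 Ctrl arrays. Every group overlapped the others. The change was 0.07 ± 0.40 SE at 1 dpi (adjusted p = 0.894) and -0.61 at 3 dpi (adjusted p = 0.296). Without Ctrl replicate 1 the same probe gave -1.06 at 3 dpi and was called. Mecom was also called lower at 3 dpi with slide as a block. Of the 5 Mecom probes, 3 did not pass the filter, and probe 2 gave 0.76 and 0.30. Without Ctrl replicate 2 or 1 dpi replicate 2, probe 2 became the brighter and stood for the gene. In the latter case it gave 1.28 at 1 dpi and was called, while probe 1 gave 0.14.

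**Figure D3:**
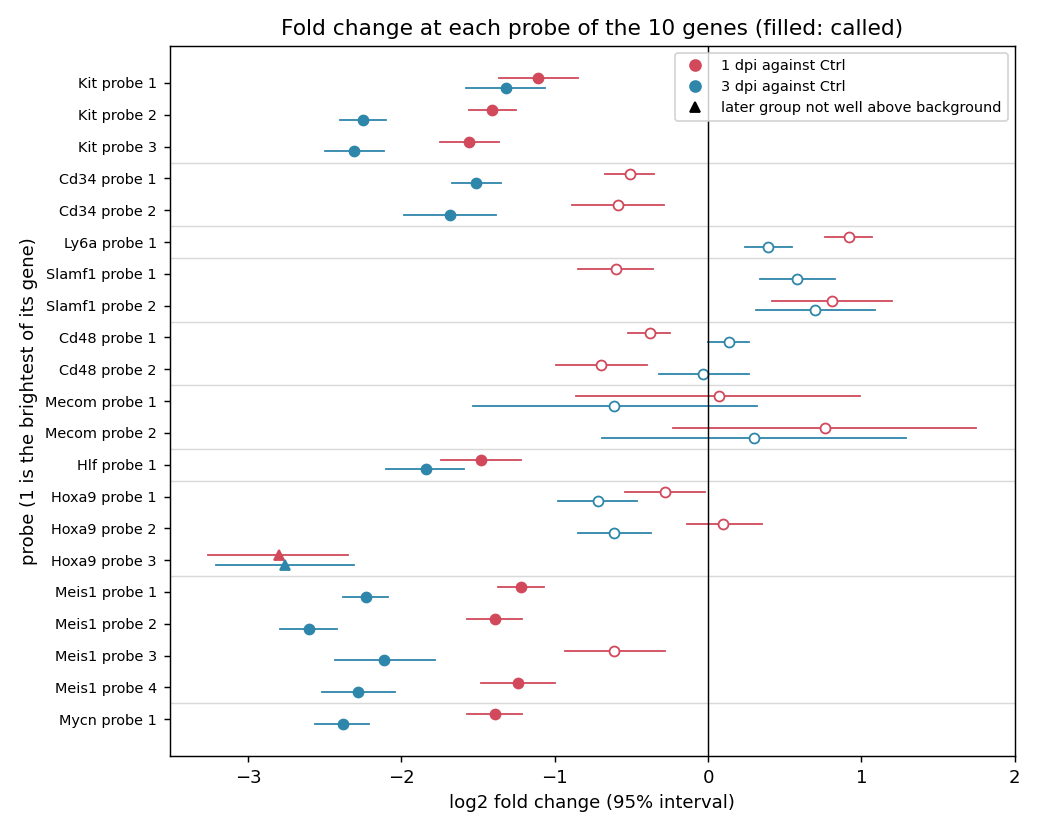
Log2 fold change against Ctrl at each of the 21 probes that passed the filter, with its 95% interval, at 1 dpi (red) and 3 dpi (blue). Filled symbols were called, and triangles mark a group that was not well above background, where the plotted change is no measured size. The probes of Kit, Cd34 and Meis1 lie below 0 at both times, while those of Slamf1 and Hoxa9 at 1 dpi, and of Cd48 and Mecom at 3 dpi, lie on both sides of 0.

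Of 19 tested genes of the Hoxa cluster and the TALE homeobox cofactors (Hoxa13 did not pass the filter), 2 rose and 2 fell at 1 dpi, and 2 rose and 4 fell at 3 dpi, Meis1 included. Hoxa7 and Hoxa5 fell 2.32-fold and 2.27-fold at 3 dpi, and at 1 dpi gave -0.32 and -0.49. Hoxa3 fell 2.25-fold at 1 dpi and gave -0.93 at 3 dpi. Under array median scaling 3 and then 5 fell, and after quantile normalization 2 and then 6. The median without Hoxa9 and Meis1 was 0.04 and -0.10.

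Beyond the 10 genes, a list of 27 other genes of stem and progenitor cells, most but not all of them for surface proteins, was tested in full. Of these, 1 rose and 4 fell at 1 dpi, and 4 rose and 6 fell at 3 dpi. Their medians were -0.17 and -0.20, and with arrays scaled to their median 8 and then 7 fell. Flt3, the receptor that marks multipotent and lymphoid progenitors and dendritic cells, fell 3.19-fold and 4.40-fold. Cd27, a receptor of progenitors and lymphocytes, fell 2.94-fold and 3.87-fold. Cdh5, the cadherin of endothelial cells, rose 3.28-fold and 5.31-fold. Of these 27 genes, 8 are also in another of the lists used here.

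Among 39 other transcription factors and regulators of stem and progenitor cells, 3 rose and 4 fell at 1 dpi. At 3 dpi 3 rose and 7 fell, and the medians were -0.32 and -0.46. With arrays scaled to their median 7 and then 10 fell, and 2 and then 1 rose, while after quantile normalization 2 and then 7 fell, and 1 and then 3 rose. Sox4, which early B cells need, fell 2.65-fold and 4.11-fold, and Hmga2, a chromatin protein of fetal stem cells, fell 2.72-fold and 2.44-fold. Eya1 rose 2.78-fold at 1 dpi and was at 6.20 at 3 dpi, beside 5.96 in Ctrl. Here 7 genes are in another list. At 3 dpi against 1 dpi, the medians of the 2 lists were -0.04 and -0.16, and both were above 0 with arrays scaled to their median (0.13 and 0.02).

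In a list of 15 genes with the Kit ligand and other factors of the stem cell niche, 6 rose and 1 fell at each time, with medians of 0.79 and 0.64. Of the 15, 5 are in another list, and Cxcl12 is also among the stromal markers, of which 9 and then 10 rose. Cxcl12, the chemokine that holds stem cells in the marrow, rose 6.47-fold and 11.4-fold. Bmp4 rose 7.76-fold and 11.8-fold, Spp1 (osteopontin) rose 6.21-fold and 8.63-fold, and Ptn (pleiotrophin) rose 12.9-fold at 1 dpi and was not called at 3 dpi (0.64, adjusted p = 0.0832). Behind the receptor, in 16 genes of Kit signalling other than Kit, limma called 1 lower at 1 dpi, 0 lower at 3 dpi and 0 higher at either time. In the list of 17 with Kit, 6 were higher at an unadjusted p under 0.05 at 1 dpi and 5 at 3 dpi, and 6 and then 2 were lower. The 1 called was Sos1, an exchange factor for Ras, which fell 2.38-fold and gave -0.40 at 3 dpi. The median of the 17 was 0.11 and 0.13, and it was -0.21 and -0.02 with arrays scaled to their median.

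**Figure D4:**
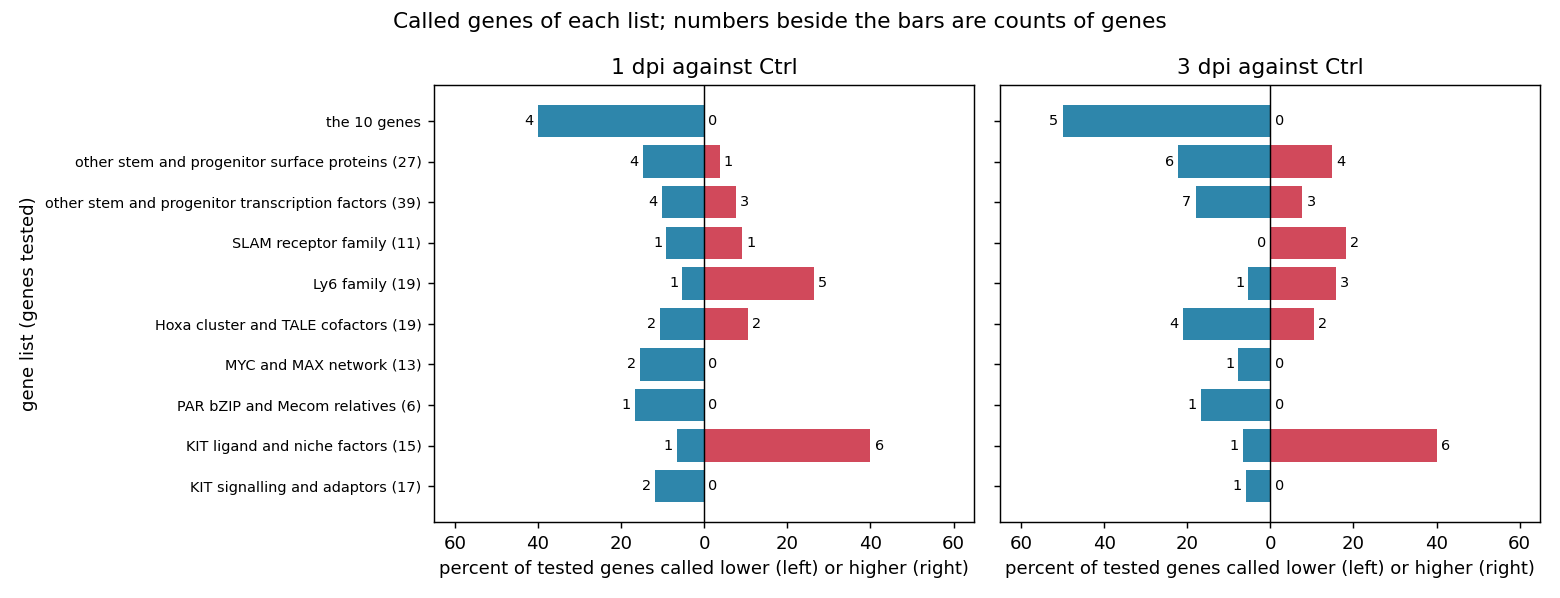
Percent of the tested genes of each list that were called lower (left, blue) or higher (right, red) against Ctrl, with the count beside each bar. The 10 genes have 4 and 5 called lower and 0 called higher, and the list of Kit ligand and niche factors has 6 called higher at each time. The family lists include the genes of the 10 that belong to them.

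Several of the 10 genes are shared with other marrow cells, and marker lists of these cells moved between the groups. Cd34 and Ly6a are also made by endothelial and stromal cells. The mean level of 15 endothelial markers, all measured, was -1.25, -1.31 and -1.28 in Ctrl, -0.28, -0.48 and -0.31 at 1 dpi and 0.26, 0.01 and 0.11 at 3 dpi, with Egfl7 the brightest. That of 16 stromal markers, all measured, was -1.24, -1.10 and -1.04, then 0.24, 0.05 and 0.21, then 1.29, 1.14 and 1.19, with Vcam1 the brightest. Both lists were lowest in Ctrl, where Cd34 was highest. Of the endothelial markers 7 and then 10 rose, and of the stromal markers 9 and then 10, and limma called 0 of either list lower, though 1 endothelial marker was lower at 1 dpi under each of the other 2 scalings. At an unadjusted p under 0.05, 1 endothelial marker was lower at 1 dpi and 0 at 3 dpi, and 1 stromal marker at each time. Their part in the levels of Cd34 and Ly6a was not tested.

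Mast cells keep Kit for life. Of 13 mast cell and basophil markers 11 were measured, and their mean level was 2.22, 2.29 and 2.24 in Ctrl, 3.26, 3.24 and 3.21 at 1 dpi and 3.00, 3.06 and 3.02 at 3 dpi, with Prss34 the brightest. Tpsab1 was well above background on 0 arrays and Mrgprb2 on 2. The list joins mast cells with basophils and does not tell them apart. At 1 dpi Prss34 stood at 8.04, Mcpt8 at 7.53 and Tpsb2 at 1.78. The mean of this list was lowest in Ctrl, where Kit was highest, and 6 markers rose at 1 dpi and 4 at 3 dpi. With arrays scaled to their median 3 rose at each time, and after quantile normalization 4 and 3. Early erythroid cells also carry Kit. The 14 erythroid markers stood at 1.19, 1.07 and 1.09 in Ctrl, at -0.89, -1.04 and -1.13 at 1 dpi and at -0.64, -0.50 and -0.59 at 3 dpi, with Hba-a1 the brightest. Like Kit, their mean was highest in Ctrl, and 10 and then 11 of the 14 fell. Only 1, Hba-a1, was called higher at 1 dpi, a call that neither other scaling made in this list. By limma at an unadjusted p under 0.05, 3 were higher and 10 lower at 1 dpi, and 0 and 13 at 3 dpi. The part of these cells in the level of Kit was not tested.

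B cell precursors and other lymphoid cells share Flt3, Sox4, Cd48 and Ly6d with the lists above. All 13 B cell markers were measured, at 0.29, 0.26 and 0.24 in Ctrl, -2.21, -2.22 and -2.35 at 1 dpi and -1.97, -2.01 and -2.02 at 3 dpi, with Cd79b the brightest. Of these, 11 fell at 1 dpi and 10 at 3 dpi, and Rag1 was well above background on 3 of 9 arrays. The T and NK cell list (14 of 15 measured, Nkg7 the brightest) stood at -1.56, -1.28 and -1.38, then -0.91, -1.03 and -1.07, then -0.43, -0.57 and -0.54, and 3 rose and 1 fell at 1 dpi and 5 rose at 3 dpi. With arrays scaled to their median, 0 rose and 1 fell at 1 dpi. Macrophage and monocyte markers (13 of 13, Ly6c2 the brightest), which include cells that carry Cd48, stood at 2.10, 2.01 and 1.96, then 2.37, 2.31 and 2.39, then 3.61, 3.62 and 3.63. Of these 4 rose and 1 fell at 1 dpi, and 9 rose at 3 dpi. The part of these cells in the levels of Cd48, Slamf1 and Flt3 was not tested.

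Neutrophil markers (12 of 12, Mpo the brightest), which include genes that granulocyte progenitors express, had means of 6.36, 6.87 and 6.41 in Ctrl, 1 dpi and 3 dpi, and 1 was called, higher at 1 dpi, but 0 under the other 2 scalings. Dendritic cell markers (9 of 10, Siglech the brightest, Xcr1 well above background on 0 arrays) stood at 0.38, 0.18 and 0.24, with 2 higher and 3 lower at 1 dpi (0 and 4 with arrays scaled to their median) and 1 lower at 3 dpi. In the list of 18 proliferation genes (Birc5 the brightest), with means of 3.93, 3.69 and 4.08, limma called 0 in any comparison, while with arrays scaled to their median 1 was lower at 1 dpi and 1 higher at 3 dpi against 1 dpi. At an unadjusted p under 0.05, 10 of them were lower at 1 dpi and 4 higher at 3 dpi against Ctrl, and 14 were higher at 3 dpi than at 1 dpi. Among 16 p53 target genes (Mdm2 the brightest), with means of 0.86, 3.18 and 2.20, 14 rose at 1 dpi and 6 at 3 dpi, 12 and 5 with arrays scaled to their median. The pattern of p53 targets and interferon genes, highest at 1 dpi and in between at 3 dpi, is also that of Ly6a, and the part of either in it was not tested.

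**Figure D5:**
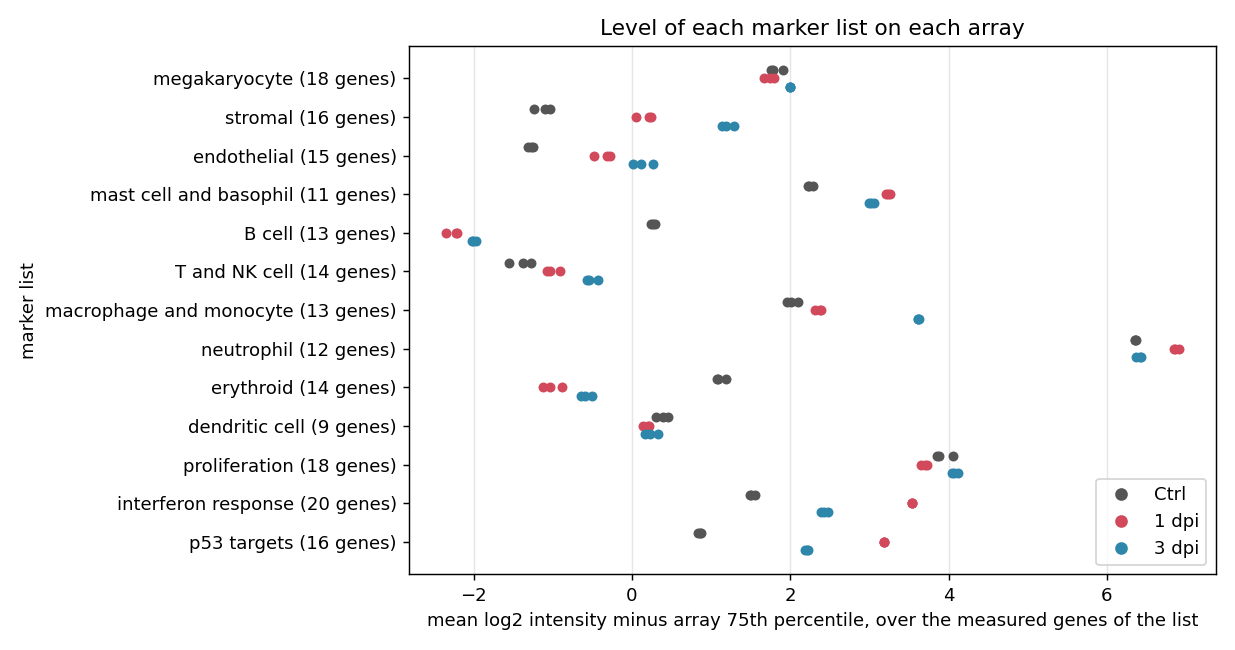
Mean level of the measured genes of each marker list on each of the 9 arrays (log2 intensity minus the 75th percentile of the array), in Ctrl (grey), at 1 dpi (red) and at 3 dpi (blue). Stromal and endothelial markers are lowest in Ctrl, B cell and erythroid markers are highest in Ctrl, and the megakaryocyte markers have means of 1.81, 1.73 and 2.0.

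The genes whose levels ran closest to each of the 10 over the 9 arrays are given as a description, since the arrays form 3 groups that stand apart and many genes differ between them. Meis1 and Mycn were each other's neighbours among all 29410 genes (Pearson r 0.998). Besides these, Rab38 (0.999) was nearest to Meis1 and Cyp2j9 (0.998) to Mycn. For Hlf they were Fgfbp3 (0.996) and Msi2 (0.995), an RNA-binding protein of stem cells and 1 of the 39 listed transcription factors and regulators. Nearest to Kit were Bex4 (0.997) and H2-DMb2 (0.996), and to Cd34 they were Bex1 and Aldh1a1 (both 0.998), an enzyme whose activity is used to find stem cells. Ly6a was followed by ATP8 and Batf2 (both 0.996), Slamf1 by Eif4h (0.992) and Mpp6 (0.991), and Cd48 by Klf15 and Gm5086 (both 0.993). Hoxa9 had Runx3 (0.993) and Gm21992 (0.989), and Mecom, with its low signal, Grpel2 (0.969) and Unc13d (0.960).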

How the data were processed

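Gene expression was measured on 9 Agilent 1-colour arrays, 3 each of mMK RNA from Ctrl, 1 dpi and 3 dpi. Per the file headers, the spot intensity values were made by Agilent Feature Extraction 10.7.1.1, which subtracted background and removed trends within each array, with no scaling between arrays. The table deposited by the authors holds log2 values per gene name, whose normalization is not stated. Values here are the log2 of the processed signal minus the 75th percentile of the array. A gene was tested when each of the 3 arrays in some group read 1 of its probes as well above background, and its brightest probe stood for it.

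The 3 groups were fitted together with limma 3.58.1 in R 4.3.3 (with version 1.17.8 of data.table), and tables and plots were made with Python 3.11.15 and matplotlib 3.10.9. A call needed a Benjamini-Hochberg adjusted p under 0.05 and at least a 2-fold change. A separate fit of 44300 probes gave the probe values. The fit was checked on simulated data. The 10 genes and the gene lists were chosen with earlier results of these data known. Named genes were, for each list and each comparison with Ctrl, up to 3 called genes with the largest change among those above background and without overlap between groups, the brightest gene of each marker list, and for each of the 10 genes the 2 nearest by Pearson r.

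Alternatives were array median scaling, quantile normalization alone or after normexp correction with an offset of 50, the deposited table, other filters, the mean of a gene's probes, no minimum fold, other variance settings and tests, slide and replicate blocks, and leaving out each array. Exon annotation for mm9 was not used. Saturated spots were 0 among those that are not controls.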

Additional observations from a re-analysis of the deposited data

Results flagged for a closer look

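For 3 of the 10 genes, against 8.64% of all genes, the changes against Ctrl at the 2 times differed by at least 2-fold, by the test of the difference itself (limma, 3 dpi against 1 dpi, n = 3 per group). At any fold, 8 of the 10 passed an adjusted p of 0.05 in that test, against 44.3% of all genes. Slamf1 was below Ctrl at 1 dpi and above it at 3 dpi, with a difference of 1.19 between the times (adjusted p = 1.4e-04). Cd34 was lower at 3 dpi than at 1 dpi, with a difference of -1.00 (adjusted p = 4.4e-05). Meis1 also went further from Ctrl, with a difference of -1.01 (adjusted p = 3.0e-05). In each of the 3 genes, all 3 arrays of 1 time lay on 1 side of all 3 arrays of the other, as in 65.2% of all genes. The differences of Cd34 and Meis1 lie at the 2-fold limit, and that of Slamf1 was read by 1 of its 2 probes. No cause was tested.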

How the results depend on the processing

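The counts and the changes of the 10 genes were recomputed under 23 alternatives (21 for Mecom), and the gene lists under 2 other scalings. Kit, Hlf, Meis1 and Mycn at 1 dpi, and these and Cd34 at 3 dpi, were called lower against Ctrl in all of them, 92 of 92 and 115 of 115 values. The calls between the times were kept in 58 of 69 values and lost in 11. Student's t-tests gene by gene made the same calls against Ctrl, with 4 genes lower at 1 dpi, 5 at 3 dpi and 0 higher at either time. Mecom was not tested in the deposited table or with probes above background on all 9 arrays, since the filter removed it there. Of the 10 genes, 4 follow the probe used here in the deposited table, so for the other 6 the probe changes with the scaling.

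With no minimum fold, 1 gene was called higher and 7 lower at 1 dpi, while 2 higher and 6 lower were called at 3 dpi and the same numbers between the times, and genes called over the array were 16275, 9391 and 13016. With the 2-fold limit these were 4361, 2596 and 2542. After normexp correction and quantile normalization, at the same limit, they were 1667, 1147 and 1088. Of the 10 genes, 0 were called lower between the times with array median scaling, where Cd34 gave -0.83 and Meis1 -0.84. With quantile normalization, with normexp and with the deposited table, 1 of the 10 was. With the mean of a gene's probes, 0 of the 10 were called higher between the times (Slamf1 0.54).

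Leaving out 1 array gave 0 to 1 called higher at 1 dpi, the 1 being Mecom without 1 dpi replicate 2, where its probe 2 replaced probe 1, and 0 to 3 called lower between the times, 0 without 3 dpi replicate 3 (Cd34 -0.95, Meis1 -0.97) and 3 without 3 dpi replicate 1, where Mycn joined (-1.03). Against Ctrl at 3 dpi, 5 to 6 were called lower, Mecom being added without Ctrl replicate 1. Over the array, genes called ran from 3543 to 5247, 2369 to 2790 and 2231 to 2810.

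The sign changed in 10 values of single genes, none of which had been called. Slamf1 at 1 dpi was 0.10 with the mean of probes, since its probes differ. Mecom at 1 dpi was -0.26 with array median scaling, -0.46 with quantile normalization, -0.39 with slide as a block, and -0.39 to 1.28 with 1 array left out. At 3 dpi Mecom ran from -1.06 to 0.31 with 1 array left out. The values above 0 there, without Ctrl replicate 2 (0.31) and 1 dpi replicate 2 (0.30), and the 1.28 are of probe 2, which became the brighter. Probe 1 gave -0.35, -0.61 and 0.14. Cd48 at 3 dpi was -0.01 with array median scaling and -0.08 in the deposited table, which carries its probe 2. Hoxa9 between the times was 0.23 in the deposited table, which carries probe 3, not well above background at either time. Except where the probe differs, the cause was not tested.

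With the replicate block, genes called were 4186, 2505 and 2455, and the 10 genes had 4 lower, 5 lower, and 1 higher and 2 lower, the counts given above. Slide as a block gave 6 of the 10 lower at 3 dpi against Ctrl, Mecom being added. Arrays of the same number were no more alike (r from -0.107 to 0.128 in 9 pairs) than others (-0.147 to 0.102 in 18 pairs).

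Signal over background limits Mecom most, which was well above background on 8 of 9 arrays at its brightest probe, and Hoxa9 probe 3, for which only a lower bound of the fold can be given.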
